A study of Mus musculus with 4 samples.

Results

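The genes that encode the Polycomb repressive complexes were examined for open chromatin in mouse hair follicle stem cells with and without the nuclear factor I proteins NFIB and NFIX. The set is a fixed list of 9 genes: Ezh1, Ezh2, Eed, Suz12 and Jarid2 of Polycomb repressive complex 2 (PRC2), and Cbx2, Cbx7, Cbx8 and Bmi1 of Polycomb repressive complex 1 (PRC1). A peak belonged to a gene when its summit lay in, or within 100 kb of, that gene's body and no other protein-coding gene body was nearer. Peaks of the genotypes that overlapped were joined into regions, which gave 51 regions from 36 wild-type (WT) and 50 double-knockout (dKO) peaks. The whole series held 79122 regions, of which 70899 had a protein-coding gene within that distance.

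Polycomb complexes keep developmental genes silent by modifying histones. PRC2 methylates lysine 27 of histone H3 through EZH2 or its paralog EZH1, which need the partners EED and SUZ12 for activity, while JARID2 helps to bring the complex to chromatin. PRC1 attaches ubiquitin to histone H2A. Its canonical forms join a chromobox protein such as CBX2, CBX7 or CBX8, which reads the methyl mark, with a ring finger protein such as BMI1. In skin, EZH2 and EZH1 are known to hold back differentiation genes and to be needed for hair follicle growth, and BMI1 is known to restrain the cell cycle inhibitor locus Cdkn2a.

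Males were sampled at postnatal day 70, in the second resting phase of the hair cycle, and the cells were taken from back skin. The 2 WT mice had the strain label NFIBfl/fl;NFIXfl/fl;R26-YFPfl/fl, and the 2 dKO mice carried Sox9-CreER in addition, so floxed alleles and the YFP reporter were common to both genotypes. Both sorts kept CD34-positive cells with integrin alpha 6 and without DAPI or Sca-1, and the dKO sort also required YFP, so the gates differed by that marker. Cre activity was limited to cells in which the Sox9 promoter had been active, and the inducing treatment is not given in the sources used here. Open DNA was read out by ATAC-seq, where a transposase inserts adapters into accessible sites, and the authors deposited 1 peak list per genotype to which both mice are assigned. There was therefore no spread between mice, no genotype difference below has a replicate check or a p-value, and the intervals given are 95% intervals of counting error only.

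The lists held 68197 WT and 63548 dKO peaks. The median pileup, the number of reads or fragments stacked at a summit, was 73 in WT and 38 in dKO, a ratio of 1.92. The lowest local background, which was computed here from pileup and deposited fold, differed by nearly the same ratio, 1.94. Pileup was therefore divided by the median of its list, and this scaled pileup was compared as the log2 ratio of dKO to WT, in which a value below 0 means less signal in dKO. Over all shared regions with a nearest gene the median of this log2 ratio was −0.15, which is the level against which single regions are read. Of the stem cell markers with a listed gene start, Cd34 and Lhx2 both had a peak there in both lists, while the fibroblast genes Col3a1 and Pdgfra and the immune genes Ptprc and Cd3e had none in either list. The melanocyte gene Dct and the epidermal gene Lor had one in both lists, and the epidermal gene Krt10 in neither. Away from their starts the fibroblast and immune genes did have regions. Ptprc had 3 dKO-only and 2 shared, and Col3a1 had 2 dKO-only and 1 shared. Pdgfra had 3 WT-only, 1 dKO-only and 6 shared, and Cd3e had 1 WT-only. The fibroblast gene Col1a1 and the endothelial genes Cdh5 and Pecam1 had no listed start. Col1a1 had 3 WT-only and 5 shared regions, and Cdh5 had 3 dKO-only and 4 shared. Pecam1 had 1 WT-only, 1 dKO-only and 10 shared. The part of other cell types in the results was not tested.

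Gene-start sequences are shown first, because the start was where all but 1 of these genes could be compared between genotypes. The lines give the 250 bases before a listed start from RefSeq (GRCm38.p6, the assembly of mm10), 5′ to 3′ on the gene's strand, for Ezh2, whose start differed least by scaled pileup, though not by deposited fold, and for Ezh1, Suz12 and Jarid2, whose start regions had the lowest ratios of scaled pileup. Both Jarid2 windows are given, because the lowest region has its summits beside the second start, and the window before that start holds none of the motifs. Capitals mark the NFI arm TTGGC, one side of the palindromic NFI site, or its reverse complement GCCAA, and the NF-Y site CCAAT or its reverse complement ATTGG. In GCCAAT both motifs share letters.
Ezh2, chr6:47595031-47595280, minus strand: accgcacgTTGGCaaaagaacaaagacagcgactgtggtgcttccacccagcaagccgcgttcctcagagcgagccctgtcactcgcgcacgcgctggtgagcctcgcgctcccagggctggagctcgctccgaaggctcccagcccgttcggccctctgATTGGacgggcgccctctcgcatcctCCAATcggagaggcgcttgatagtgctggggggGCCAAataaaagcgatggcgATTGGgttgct
Ezh1, chr11:101226464-101226713, minus strand: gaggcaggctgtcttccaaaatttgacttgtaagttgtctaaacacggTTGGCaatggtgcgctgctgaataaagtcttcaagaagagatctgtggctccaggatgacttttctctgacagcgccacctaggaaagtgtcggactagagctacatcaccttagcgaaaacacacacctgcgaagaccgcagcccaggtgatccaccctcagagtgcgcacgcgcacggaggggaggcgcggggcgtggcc
Suz12, chr11:79992856-79993105, plus strand: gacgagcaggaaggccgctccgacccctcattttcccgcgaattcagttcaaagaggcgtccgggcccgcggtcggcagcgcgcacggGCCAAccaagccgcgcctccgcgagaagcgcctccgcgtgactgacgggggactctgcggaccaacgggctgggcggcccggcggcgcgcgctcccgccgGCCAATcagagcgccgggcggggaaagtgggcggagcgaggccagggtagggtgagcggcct
Jarid2 first start, chr13:44730524-44730773, plus strand: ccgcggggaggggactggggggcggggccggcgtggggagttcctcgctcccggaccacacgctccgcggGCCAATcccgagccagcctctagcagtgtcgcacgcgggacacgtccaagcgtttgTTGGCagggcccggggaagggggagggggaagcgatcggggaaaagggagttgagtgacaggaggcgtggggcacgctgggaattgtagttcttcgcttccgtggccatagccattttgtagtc
Jarid2 second start, chr13:44731021-44731270, plus strand: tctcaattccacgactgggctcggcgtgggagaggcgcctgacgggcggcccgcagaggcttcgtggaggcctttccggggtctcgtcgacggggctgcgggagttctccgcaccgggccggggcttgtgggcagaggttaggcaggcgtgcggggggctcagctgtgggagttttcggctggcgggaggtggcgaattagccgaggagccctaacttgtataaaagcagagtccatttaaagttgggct

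The promoter table held 9 such windows for 8 of the genes, among them both starts listed for Jarid2, and was compared over 21263 windows of protein-coding genes. Both strands were searched. The NFI arm was in 5 of the 9 windows, those of Ezh1, Ezh2, Suz12, Cbx8 and the first Jarid2 start, and in 43.0% of all windows. The full NFI site, TTGGC and GCCAA spaced by 5 bases, was in 0 of the 9 and in 0.0329% of all windows. The NF-Y site was in 5 of the 9 windows and in 35.4% of all, with 3 copies before Ezh2 at 90, 64 and 11 bases from the start. The E2F sites TTTCGCGC and TTTGGCGC, the latter of which contains the NFI arm, were in 0 of the 9 and in 0.362% and 0.508% of all windows. A match is a description of letters only. CpG pairs numbered 37 before Suz12, which was at the 97.7 percentile of all windows, and 12 before Eed, close to the median of 10.

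The Polycomb genes had many more regions found only in dKO than regions found only in WT, and most of them lay at Jarid2 and Eed. Of the 51 regions 34 were shared, 15 were dKO-only (29.4%, Wilson interval 18.7 to 43.0) and 2 were WT-only (3.92%, interval 1.08 to 13.2). Among all regions with a nearest gene 12.8% were dKO-only and 21.2% were WT-only. Jarid2 held 8 and Eed 5 of the dKO-only regions, and without these genes the remaining 20 regions held 2 dKO-only and 1 WT-only. The count depended on distance and strength. With genes within 20 kb there were 7 dKO-only, 2 WT-only and 28 shared regions. Among all regions within 10 kb of a Polycomb gene there were 7, 4 and 29, and Eed had 0 dKO-only in both settings. At a q of 1e-05 or less there were 9, 2 and 33, and Eed had 3 dKO-only. The net share, WT-only minus dKO-only, was −13.5%, −7.5% and −15.9% in place of −25.5%. The shares over all regions were not computed at these settings. The complexes differed in the same way: the 5 PRC2 genes had 38 regions with 15 dKO-only and 2 WT-only, whereas all 13 regions of the 4 PRC1 genes were shared, and a count of 0 in 13 allows a share of up to 23.1%. The count of 0 depended on the rules of joining and assignment. When peaks were joined by summits within 200 bp, Cbx2 had 1 dKO-only region, and Cbx7 and Cbx8 each had 1 WT-only and 1 dKO-only. Among all regions within 10 kb of a Polycomb gene, Bmi1 had 1 WT-only region. The difference between the complexes was not tested. Genes with the largest net number of dKO-only regions in the whole series were few: 37 of 15905 genes had as large an excess as Jarid2, and 103 as large as Eed. Neither the length of a gene nor the space around it was taken into account in these counts.

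**Figure D1:**
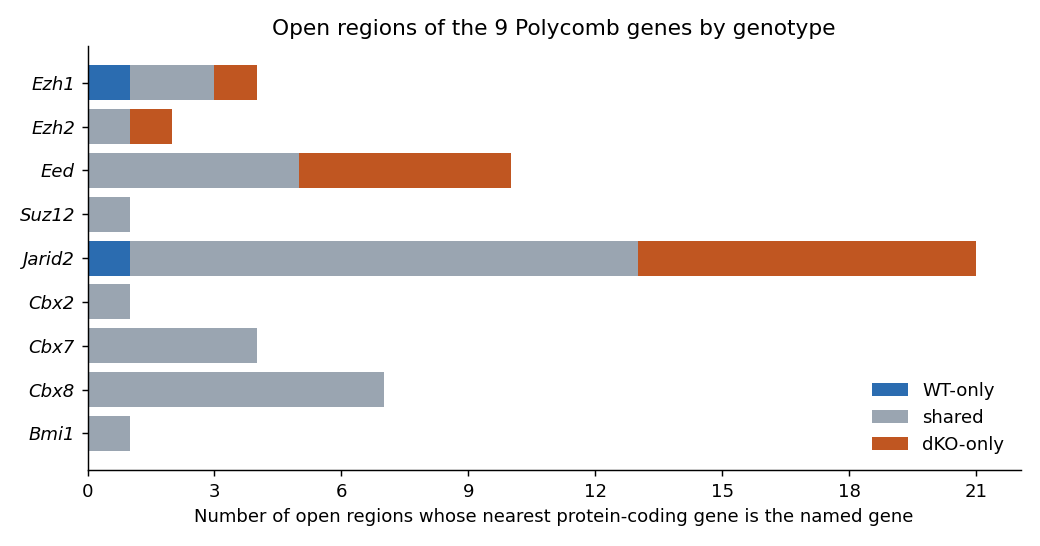
Number of open regions (horizontal axis) assigned to each of the 9 Polycomb genes, coloured by whether a peak was found in WT only, in both genotypes or in dKO only. The dKO-only regions are concentrated at Jarid2, with 8 of 21 regions, and Eed, with 5 of 10, while the 4 PRC1 genes have shared regions alone.

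Every Polycomb gene with a listed start was open at that start in both genotypes. This held for 8 of 8 genes, against 60.1% of the 17492 protein-coding genes with a listed start, when a shared region within 1 kb was required. The 9 regions at these starts, of which Jarid2 had 2, all had a log2 ratio below 0, from −0.06 at Ezh2 to −0.77 at Jarid2, with a median of −0.46 against −0.15 over all 10377 shared gene-start regions, 66.8% of which were also below 0. The counting interval lay wholly below 0 at 5 of the 9. Against the level of −0.15 it lay wholly below only at Ezh1, Suz12 and the Jarid2 region over the starts. The upper limits at Eed and Cbx8 were −0.11 and −0.13. Neither count of intervals was made over all gene starts, so neither shows that these genes differ from others. The direction depended on the measure: by the fold over local background that the authors deposited, 6 of the 9 were higher in dKO, with a median log2 ratio of 0.075, equal to the 0.075 over all shared regions with a nearest gene. At Jarid2, for example, the local background beside the start was 54.6 in WT and 17.6 in dKO, a larger ratio than the 1.94 of the lowest backgrounds. The start regions were all above the median pileup of both lists, at or above the 64.3 percentile in WT and the 55.8 percentile in dKO. These percentiles were not computed for all gene starts.

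**Figure D2:**
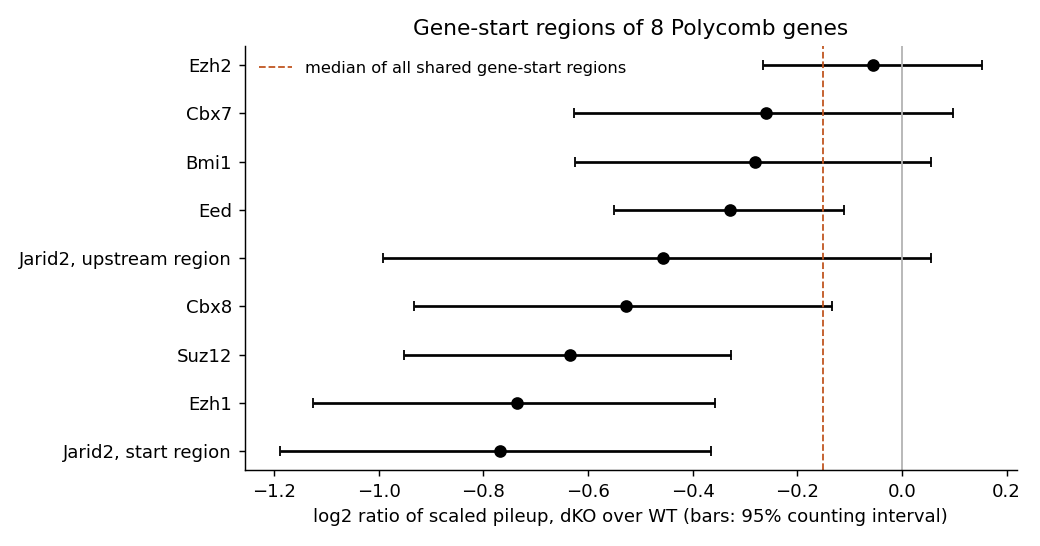
Log2 ratio of scaled pileup, dKO over WT (horizontal axis), for the 9 start regions of 8 Polycomb genes, with 95% counting intervals as bars and the median of all shared gene-start regions, −0.15, as a dashed line. Ezh2 lies at −0.06, while Suz12, Ezh1 and the Jarid2 start region lie at −0.63 to −0.77 with intervals below the dashed line.

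The paralogs Ezh1 and Ezh2, which encode alternative catalytic subunits of PRC2, had unlike ratios of scaled pileup at their starts. Ezh2 (gene 14056, chromosome 6, 47530274 to 47595270, mm10) had a pileup of 569 in WT and 285 in dKO over its start (47594184 to 47595689), which is 7.79 and 7.50 times the list medians. These values differed by less than counting error, with a log2 ratio of −0.06 (interval −0.27 to 0.15), and the summits lay at −107 and −133 bases from the start, within the window printed above. The region is one of the strongest of the set, at the 97.5 percentile of WT pileups, and also overlaps the long noncoding RNA gene F830010H11Rik. Besides the start, Ezh2 had a single weak dKO-only region inside the gene, 33.2 kb after the listed start (47561573 to 47561848), with a pileup of 12.

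Ezh1 (gene 14055, chromosome 11, 101191115 to 101226463) had a pileup of 243 in WT and 76 in dKO at its start (101225782 to 101226819), which is 3.33 and 2.00 times the medians. The log2 ratio was −0.73 (interval −1.13 to −0.36). By deposited fold the Ezh1 start differed little, with a log2 ratio of −0.092, and the Ezh2 start was at 0.20. The difference between the paralogs was not tested. Inside the gene a WT-only region (101211951 to 101212293) had a pileup of 51 and a −log10 q of 30.4, the stronger of the 2 WT-only regions of the set. A dKO-only region (101221120 to 101221460) had a pileup of 12 and a −log10 q of 2.57. A shared region 5.08 kb before the start was weak in both lists, with pileups of 33 and 16.

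Suz12 (gene 52615, chromosome 11, 79993106 to 80034123), whose protein stabilises the PRC2 core, had its start region (79992506 to 79994071) and no other. Its pileup was 346 in WT and 116 in dKO, or 4.74 and 3.05 times the medians, with a log2 ratio of −0.63 (interval −0.95 to −0.33). The widths were 1557 bp and 1546 bp, and the summits lay at −11 and −106 bases from the start. The deposited fold was 14.5 in WT and 13.6 in dKO.

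Eed (gene 13626, chromosome 7, 89954654 to 89980976), which encodes the subunit that binds the methyl mark, had no summit inside its body. Its start region (89979978 to 89981835) had the highest WT pileup of the set, 591, against 245 in dKO, or 8.10 and 6.45 times the medians. The log2 ratio there was −0.33 (interval −0.55 to −0.11). The other 9 regions lay in the stretch of 149 kb between Eed and Picalm, from 17.3 to 74.3 kb beyond the start, and 5 of these were dKO-only. The farthest of them is almost midway to Picalm, and 5 regions of the stretch overlap the long noncoding RNA genes E230029C05Rik or Gm32164, so their assignment to Eed rests on the nearest-gene rule alone.

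Among these distal Eed regions the shared ones were on both sides of 0. The region 26.3 kb before the start (90006854 to 90007621) had a pileup of 115 in WT and 106 in dKO, or 1.58 and 2.79 times the medians, a log2 ratio of 0.82 (interval 0.43 to 1.22) at the 91.0 percentile of all shared regions. The next shared region outward (90033394 to 90034454) had 142 and 97, a log2 ratio of 0.39 (interval 0.004 to 0.77). The shared regions 17.3 kb and 59.9 kb out were at −0.22 and −0.44. By deposited fold the log2 ratios of these shared regions, in order of distance, were −0.48, 0.015, −0.19 and 0.061.

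The 5 dKO-only regions of Eed had pileups of 32, 12, 28, 18 and 56 in order of distance. The strongest by q value (90003295 to 90003765) had a −log10 q of 7.28 and a fold of 3.32. The one with a pileup of 56 (90055088 to 90055375) had a fold of 2.13 over a local background of 25.8, well above the lowest dKO background of 2.73, and a −log10 q of 5.17. All 5 lay within 10 kb of a WT peak summit, at 3.55 to 9.48 kb.

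Jarid2 (gene 16468, chromosome 13, 44730774 to 44921643) had 21 regions over a body of 191 kb and the stretch before it, where the next protein-coding gene is 928 kb away. They were 12 shared, 8 dKO-only and 1 WT-only. Of the dKO-only regions 3 lay before the gene and 5 inside it. The strongest dKO-only region (44821934 to 44822582), 91.1 kb after the second listed start, had a pileup of 27 and a −log10 q of 15.0. The only WT-only region (44890586 to 44890940) had a pileup of 31 and a −log10 q of 12.5. The 8 dKO-only pileups ran from 11 to 27. Multiplied by the ratio of the list medians, the lowest of these corresponds to 21.1 at the WT depth, and the WT list's 5th percentile was 20. These regions were chosen by being called in dKO, so this scaling cannot show whether WT would have had a peak. The part of depth was not tested.

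At the Jarid2 starts, listed at 44730774 and 44731271, 2 shared regions were separated by a short gap. The upstream one (44729591 to 44730355) had pileups of 116 and 44 and a log2 ratio of −0.46 (interval −0.99 to 0.06). The one over the starts (44730593 to 44731393) had 216 and 66, or 2.96 and 1.74 times the medians, with a log2 ratio of −0.77 (interval −1.19 to −0.36), and its summits lay at 8 and −88 bases from the second start. By deposited fold it differed little, at 3.9 in WT and 3.6 in dKO. The Jarid2 region with the highest pileup in both lists (44733274 to 44734634) lay inside the gene, 2.82 kb after the second start. It had pileups of 363 and 160 and a log2 ratio of −0.24 (interval −0.52 to 0.03).

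Further along Jarid2 the shared regions went in both directions. Distances are from the nearer of the listed starts. The 3 shared regions nearest the 3′ end had the lowest ratios of scaled pileup of the gene. At 138 kb from the start (44869571 to 44869991) the pileup was 214 in WT and 47 in dKO, or 2.93 and 1.24 times the medians, 2.37-fold lower with a log2 ratio of −1.24 (interval −1.73 to −0.78). At 177 kb (44907381 to 44908292) it was 198 and 51, with a log2 ratio of −1.02 (interval −1.49 to −0.56), but by deposited fold this region was slightly higher in dKO, 11.1 against 10.3. At 182 kb (44912780 to 44913406) it was 150 and 19, or 2.05 and 0.50 times the medians, 4.11-fold lower with a log2 ratio of −2.04 (interval −2.81 to −1.35) at the 1.07 percentile of all shared regions. By deposited fold the outer 2 of these were also lower, at 26.2 against 12.9 and 11.2 against 5.36.

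Elsewhere in the gene and before it, shared regions were on both sides of 0. The region 68.7 kb in (44799114 to 44800409) had pileups of 98 and 32, or 1.34 and 0.84 times the medians, a log2 ratio of −0.67 (interval −1.30 to −0.08), and was also lower by deposited fold, at −0.50 on the log2 scale. The region 115 kb in (44845447 to 44846270) had pileups of 87 and 66, or 1.19 and 1.74 times the medians, a log2 ratio of 0.54 (interval 0.06 to 1.02), though its deposited folds were nearly equal, 11.7 and 11.3. The region 26.9 kb before the start (44703510 to 44704525) had 57 and 52, a log2 ratio of 0.81 (interval 0.24 to 1.38). The region 56.7 kb before it (44673532 to 44674295) had 18 and 24, a log2 ratio of 1.36 (interval 0.41 to 2.32), the highest of the set, from a WT peak at only the 2.82 percentile of its list.

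**Figure D3:**
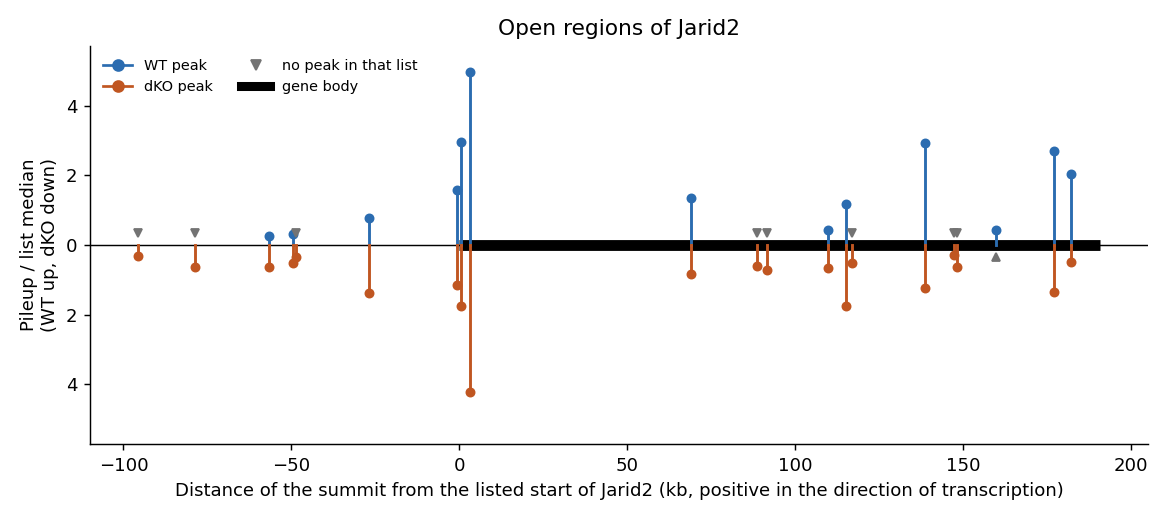
Scaled pileup (vertical axis, WT upward and dKO downward) of each Jarid2 region against the distance of its summit from the first listed start (horizontal axis, kb), with the gene body as a black bar and grey triangles where a list had no peak. The shared regions from 138 kb onward are taller in WT, and the dKO-only regions reach at most 0.71 times the dKO median. The region 2.82 kb after the second listed start is the tallest in both lists.

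The PRC1 genes had few regions, all present in both lists when peaks were joined by overlap, and the largest difference was beside Cbx8. Cbx8 (gene 30951, chromosome 11, 119036303 to 119040913), a chromobox subunit, had 7 regions, each with a log2 ratio below 0. Of all shared regions with a nearest gene 61.0% were below 0, with a median of −0.15. The region 4.09 kb before its start (119044733 to 119045311) had a pileup of 469 in WT and 84 in dKO, or 6.42 and 2.21 times the medians. It was 2.91-fold lower in dKO with a log2 ratio of −1.54 (interval −1.89 to −1.20), at the 2.91 percentile of all shared regions, and both summits were at the same base. By deposited fold it was 8.55 in WT and 5.52 in dKO. The Cbx8 start region (119040637 to 119042063) had 202 and 73, a log2 ratio of −0.53 (interval −0.93 to −0.13), and the other 5 ranged from −0.72 to −0.02. The intervals of the regions at −0.37, −0.32 and −0.02 included 0. By deposited fold 3 of the 7, the start region among them, were higher in dKO.

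**Figure D4:**
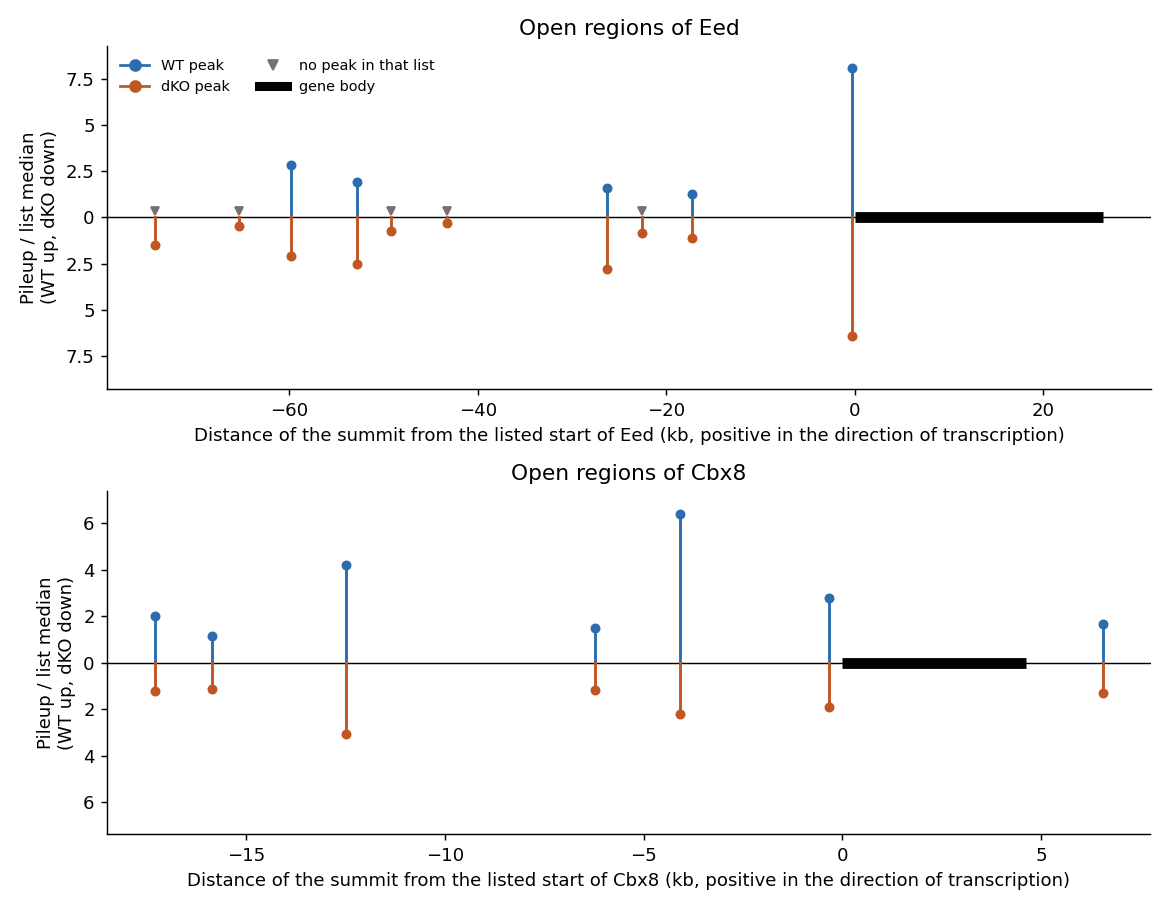
Scaled pileup (vertical axis, WT upward and dKO downward) of the regions of Eed (upper panel) and Cbx8 (lower panel) against the distance of the summit from the listed start (horizontal axis, kb), with gene bodies as black bars and grey triangles where a list had no peak. Beyond the start of Eed dKO-only regions are interspersed with shared ones. At Cbx8 all 7 regions are shared. The one 4.09 kb before the start shows the widest gap, 6.42 in WT against 2.21 in dKO.

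Cbx8 lies 5.03 kb from Cbx2, another chromobox gene. Cbx2 (gene 12416, chromosome 11, 119023019 to 119031275) had a single region (119021038 to 119023639), which covers one end of the gene and overlaps the long noncoding RNA gene Gm35829. Its pileup was 301 in WT and 160 in dKO, or 4.12 and 4.21 times the medians, a log2 ratio of 0.03 (interval −0.26 to 0.31). In dKO that region consisted of 2 peaks, the stronger 1255 bp wide, and in WT of 1 peak of 2602 bp.

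Cbx7 (gene 52609, chromosome 15, 79915804 to 79971143), the chromobox protein known to bind the methyl mark in embryonic stem cells, had 4 shared regions within its annotated body, which overlaps Apobec3. Its start region (79932106 to 79933621) had a pileup of 214 in WT and 93 in dKO, a log2 ratio of −0.26 (interval −0.63 to 0.10), with both summits at the same base. The region 4.79 kb after the listed start had 151 and 80, at 0.03. The regions 13.6 and 17.5 kb before the listed start had 114 and 37, at −0.68 (interval −1.26 to −0.14), and 123 and 50, at −0.36 (interval −0.86 to 0.13). None reached a 2-fold difference.

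Bmi1 (gene 12151, chromosome 2, 18677018 to 18686629), the ring finger subunit, had 1 region, just inside its listed start (18677062 to 18677891). Its pileup was 245 in WT and 105 in dKO, or 3.36 and 2.76 times the medians, with a log2 ratio of −0.28 (interval −0.62 to 0.06). The WT peak was 822 bp wide and the dKO peak 414 bp. The neighbouring gene Commd3 ends 0.787 kb before Bmi1, so regions on that side were nearest to Commd3.

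Over all 34 shared regions of the set, 4 were at least 2-fold lower in dKO, 3 at Jarid2 and 1 at Cbx8, and 1 was at least 2-fold higher, at Jarid2. Among all 46759 shared regions with a nearest gene 8.8% were at least 2-fold lower and 6.35% at least 2-fold higher. The median log2 ratio of the 34 was −0.32, against −0.15 over all, and 25 of the 34 lay below 0 against 61.0% of all. By deposited fold the median of the 34 was 0.069, close to the 0.075 over all. In the series as a whole the ratio also moved with strength, from a median of 0.12 in the weakest 20% of shared regions to −0.26 in the 20% below the strongest. Summits of the 34 regions were a median of 28 bp apart, against 45 bp over all shared regions, and 26 of them moved by at most 100 bp.

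**Figure D5:**
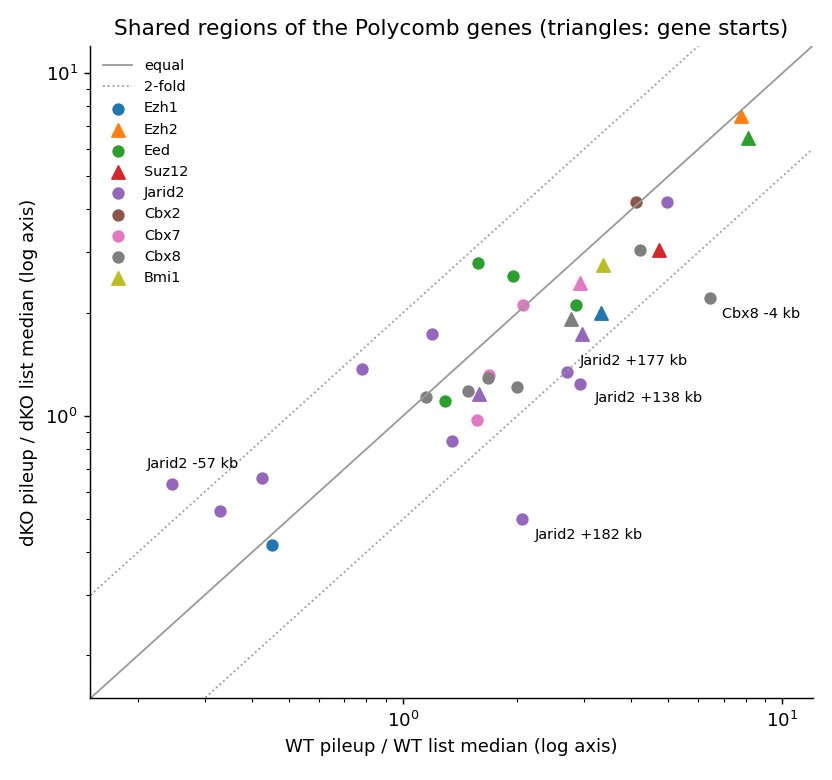
Scaled pileup in dKO (vertical log axis) against WT (horizontal log axis) for the 34 shared regions, with triangles for gene starts, circles for other regions, a solid line of equality and dotted lines at 2-fold. Most points lie just under the line of equality, and the labelled points past 2-fold are 4 below it, at Jarid2 and Cbx8, and 1 above it, at Jarid2.

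As groups, other genes of the same complexes did not show the excess of dKO-only regions found at Jarid2 and Eed. The 20 further PRC1 genes had 105 regions, of which 30 were WT-only (28.6%) and 6 dKO-only (5.71%), with a median log2 ratio of −0.32 over 69 shared regions. Over all regions with a nearest gene 21.2% were WT-only and 12.8% dKO-only. Rybp, which encodes a subunit of variant PRC1, was assigned 13 regions of WT, 2 of dKO and 17 of both lists, and Scmh1, encoding a PRC1-associated protein, 8, 0 and 9, so these 2 genes held most of the WT-only regions of that list. Scmh1 also had 5 shared regions at least 2-fold lower in dKO. The 6 further PRC2 genes had 24 regions, 4 WT-only (16.7%), 2 dKO-only (8.33%) and 18 shared, and a median log2 ratio of −0.20. Aebp2, an accessory PRC2 subunit, was assigned 3 in WT alone and 1 in dKO alone. Gene starts in this group were again mostly shared: 15 of 16 PRC1 and 6 of 6 PRC2 genes with a listed start had a shared region there, and the exception, Sfmbt2, had a WT-only one. The difference between these genes and the 9 was not tested.

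Genes that act against Polycomb, or that it represses, had 36 regions, 7 WT-only (19.4%), 2 dKO-only (5.56%) and 27 shared. The shares over all regions with a nearest gene were 21.2% and 12.8%. All 10 with a listed start had a shared region there. Kdm6a, encoding a demethylase that removes the PRC2 mark, was assigned 3 WT-only against 0 dKO-only regions and was the only one of the 13 genes with a difference of at least 2. At the cell cycle inhibitor genes Cdkn2a and Cdkn2b, classical targets of Polycomb, the start regions were shared with log2 ratios of 0.28 and 0.19. Cdkn2a had 1 WT-only and Cdkn2b 1 dKO-only region besides.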

How the data were processed

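ATAC-seq peak lists of sorted hair follicle stem cells were used, 1 list for the 2 WT mice and 1 for the 2 dKO mice. Bowtie2 2.2.9, Picard, MACS2 and the builds mm10 and GRCm38 are named in the submitters' processing notes, with no role or order. How mice were combined, duplicates treated and reads shifted for the transposase is not given in the sources used here, and read depth is unknown beyond what pileup shows. Per the file headers, the deposited signal is the pileup at each summit, in whole numbers. Fold enrichment, a ratio to local background, was also deposited, and the local background was recovered from it assuming that 1 was added to both terms. The −log10 q column deposited by the authors was identified by its position, because a spreadsheet program had damaged its header, and its lowest value was 1.30 in both lists, a q of 0.05.

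Mitochondrial peaks, 5 in WT and 3 in dKO, were left out. Peaks overlapping by at least 1 bp were joined, and a region with several peaks of a list took the one with the highest −log10 q. The number of overlapping peaks differed from bedtools 2.31.1 by 0, and joining and ratios were tested on simulated data. Genes, starts and sequences came from RefSeq tables of GRCm38.p6, and all 9 genes matched by symbol. Ratio intervals are exact conditional binomial intervals, shares have Wilson 95% intervals, and the limit of a count of 0 is 3 counts. They treat stacked fragments as independent molecules, which libraries without molecular identifiers do not ensure. Python 3.11.15, pandas 2.3.3 and scipy 1.17.1 were used. The text names the start regions, the strongest single-list regions of a gene, shared regions past 2-fold, and further Polycomb genes with a difference of at least 2 single-list regions. One gene that this rule names is not reported here. Other regions were added after their values were seen. The genes, lists and comparisons were chosen with earlier results of these data known.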

Additional observations from a re-analysis of the deposited data

How the results depend on the processing

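No paired analysis was possible because each genotype has 1 list for both mice, and for the same reason no mouse could be left out. Of the alternatives to the main processing, 50% overlap of the shorter peak, placement by midpoint, lists of equal length, scaling to the lowest background and summed pileup kept every count they gave over the 9 genes within 1.5 times. The number of Polycomb genes with a shared start region was 8 under all 3 of its alternatives. With summits within 200 bp there were 7 WT-only regions and 0 at least 2-fold higher in dKO. The PRC1 genes Cbx2, Cbx7 and Cbx8 then had single-list regions. At a q of 1e-05 or less there were 9 dKO-only regions and 0 higher. With genes within 20 kb there were 7 dKO-only, 0 of them at Eed, and 0 higher. With all regions within 10 kb of a member there were 4 WT-only, 7 dKO-only and 0 higher, and the net share, WT-only minus dKO-only, was −7.5% in place of −25.5%. Settings without Jarid2 or Eed were added after the data were seen. Without Jarid2 there were 1 WT-only, 7 dKO-only and 22 shared regions, 1 at least 2-fold lower and 0 higher, and without Jarid2 and Eed 1, 2 and 17, with 1 lower, 0 higher and a net share of −5%.

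By deposited fold 2 shared regions were at least 2-fold lower, and the median log2 ratio of the 34 shared regions turned to 0.069. The start regions of Ezh2 (0.20), Eed (0.072), Cbx7 (0.075), Cbx8 (0.43) and Bmi1 (0.16), the upstream region at the Jarid2 start (0.20) and the Jarid2 region at 177 kb (0.12) also turned. The Ezh2 start region turned with lists of equal length (0.077) and with scaling to the median of shared regions (0.10). By deposited fold the start regions of Ezh1 (−0.092) and Suz12 (−0.091) and the Jarid2 region over the starts (−0.12) were still lower in dKO, but by less. Over all shared regions of the series, the median log2 ratio was −0.15 as reported, −0.25 at the stricter q, −0.03 with lists of equal length and 0.01 with scaling to shared regions. The cause was not tested. The lowest pileup among the dKO-only regions was 11, and the part of depth in these counts was not tested.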

Other observations

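Some regions within 10 kb of a Polycomb gene were nearest to another gene. The strongest, nearest to Commd3 and 3950 bp from Bmi1 (chromosome 2, 18671721 to 18673068), had a pileup of 537 in WT and 275 in dKO and a log2 ratio of −0.02 (interval −0.24 to 0.19). Nearest to Cul1 and beside Ezh2, a shared region (chromosome 6, 47522247 to 47522919) had 43 and 11, a log2 ratio of −1.02 (interval −2.13 to −0.05), and a WT-only region had a pileup of 22. Beyond Bmi1 a WT-only region nearest to Gm46725 (18690282 to 18690669) had a pileup of 47.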
